A study of Mus musculus with 6 samples.

Results

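RNA of sorted side population cells from the female mouse anterior pituitary was compared between GHCre/iDTR and control mice after 10 days of diphtheria toxin. The comparison was defined by the sample titles and rests on 2 of the 6 arrays of the series, 1 for each genotype. All mice carried iDTR, a diphtheria toxin receptor that Cre recombinase switches on, and all received toxin 2 times daily, each dose being 4 ng per g. Controls (-/iDTR) lacked Cre. GHCre/iDTR mice expressed Cre under growth hormone control, so that toxin is directed at somatotropes, the growth hormone cells. The other 4 arrays, 2 of each genotype after 3 days of the same toxin, served only as a yardstick for the spread between arrays. The side population consists of cells that pump out Hoechst dye, and cells with the highest Sca1 surface level were left out. Per the labels, the neurointermediate lobe was removed first, a sort typically started from 25000 to 50000 cells, and 1 ng of RNA was amplified per sample. The number of mice behind each array and their age are not given in the sources used here.

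There is no replicate in either 10 day group, so no p-value is given and each difference compares a pair of arrays. The free-text descriptions of both 10 day samples contradict their titles: the control is described as regenerative and the GHCre sample as an uninjured control, each after 3 days. Genotype and treatment fields go with the titles, which were followed. Slide, read from the headers, is a further limit. The 10 day control is the only one of these arrays on slide 2, while the 10 day GHCre array shares slide 3 with 1 control and 1 GHCre array of 3 days. Slide and genotype cannot be told apart after 10 days.

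The anterior pituitary makes growth hormone, prolactin, the corticotropin precursor and the glycoprotein hormones, each in its own cell type. Its stem cells carry Sox2 and lie around the cleft and in clusters of the parenchyma. They are enriched in the side population, where hormone transcripts can also be found. Hedgehog, Hippo, Wnt and Notch signals act on these cells in pituitary development or in the adult gland.

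Levels below are log2 signal of a gene's brightest probe relative to the 75th percentile of its array, and a difference is GHCre minus control in log2 units. A level compares arrays for 1 probe, never 1 gene with another. Of 30154 genes or unnamed transcripts, 18030 were well above background on both 10 day arrays, 1227 on the control alone and 2098 on the GHCre array alone. The share of probes above background was 63% on the control and 65.7% on the GHCre array, and ran from 53.8% to 64.4% on the arrays of 3 days. No probe was saturated. The number of arrays limits the precision.

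The genotypes differed little in most genes after 10 days. Of the 18030 genes, 830 (4.6%) differed 4-fold or more. Of these, 358 (1.99%) were higher and 472 (2.62%) lower in the GHCre array. The median difference over all 18030 was -0.02. Replicates of 3 days lay farther apart, with 13.7% of these genes past 4-fold between the controls and 7.88% between the GHCre arrays. Over genes above background on all 6 arrays, the shares were 3.63% for the genotypes after 10 days, 8.66% for the replicate controls and 5.03% for the replicate GHCre arrays. Among all 15 pairs of arrays, the 10 day arrays had the lowest share past 4-fold. A count of 4-fold differences is therefore no larger here than between replicates, and single genes are read against their own replicate differences. In both genotypes replicate 1 was on slide 1 and replicate 2 on slide 3, so a replicate difference is also a slide difference. Control replicate 1 also had the lowest share of probes above background, 53.8%. The part of the slide in the replicate spread was not tested. A gene is called beyond the replicates where it passed 4-fold and exceeded both of its differences between replicates of 3 days. There were 557 such genes (3.09%), 237 higher (1.31%) and 320 lower (1.77%).

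**Figure D1:**
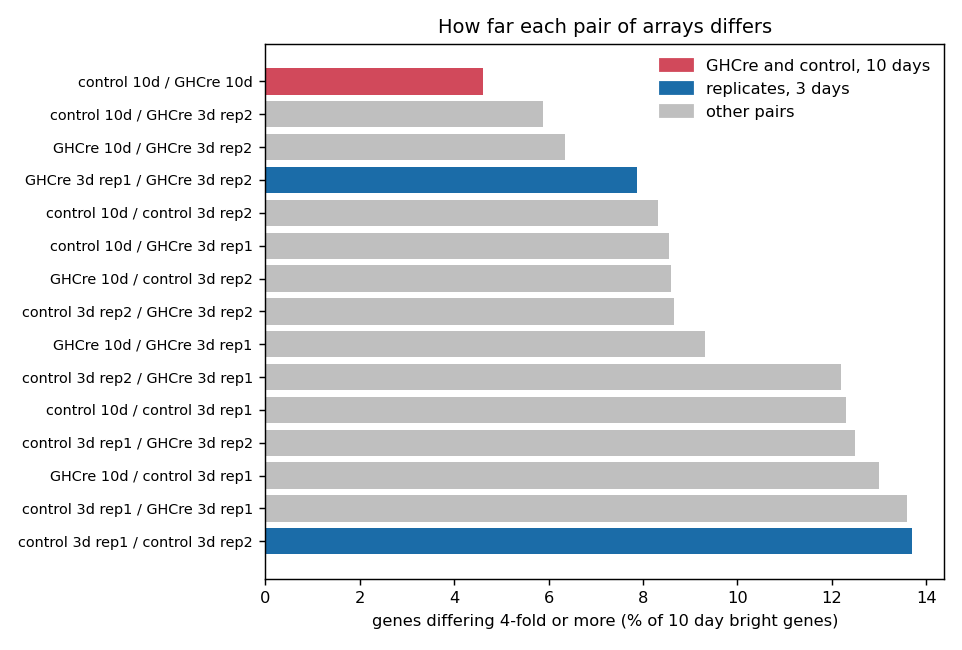
Share of genes that differ 4-fold or more in each of the 15 pairs of arrays, as a percentage of the 18030 genes above background on both 10 day arrays, a choice of genes that favours the 10 day pair. The GHCre and control arrays of 10 days differ in 4.6%, and replicates of 3 days in 7.88% and 13.7%.

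The share past 4-fold differed with brightness. Among 3623 genes with a mean 10 day level above 2, 9 (0.248%) differed 4-fold or more, against 71 between replicate controls and 34 between replicate GHCre arrays. Among 5688 genes with a level between -2 and 0 the share was 8.4%, and among the 4273 dimmest it was 5.24%. Of the 9 bright genes, Gh and Pomc encode hormones. Mtmr2, Ak3, Gm5458 and an unnamed transcript were also lower, while Igsf1, Tbc1d20 and Golga5 were higher. These 9 were named after their values were seen.

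**Figure D2:**
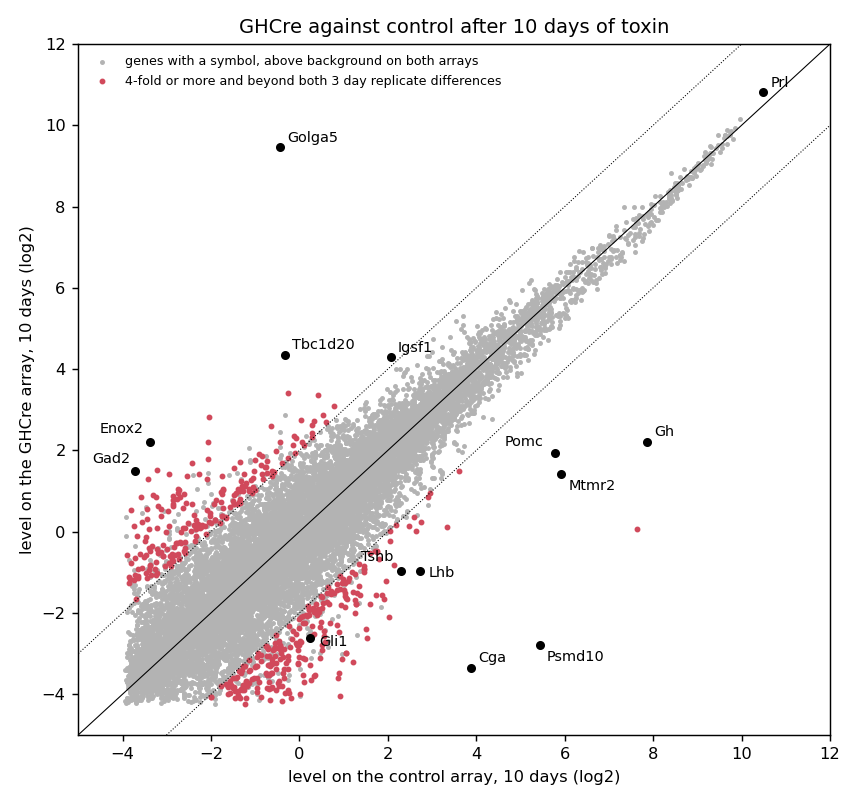
Level of each gene with a symbol on the control (x axis) and GHCre array (y axis) after 10 days, in log2 units, with dotted lines at a 4-fold difference. Red points passed 4-fold and both replicate differences. Gh, Pomc, Cga, Lhb and Tshb lie below the lower dotted line, and Prl, at 10.49 and 10.82, lies near the diagonal.

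Hormone transcripts had the largest median difference of the gene groups. Of the 7 hormone genes, 6 were above background on both arrays, and 5 of these were lower in the GHCre array by 4-fold or more, where 2.62% of all genes were. Prl alone of the 6 was not lower. The median was -3.78, while the replicate medians of the same genes, replicate 2 minus 1, were -2.05 in controls and -2.57 in GHCre mice. Beyond the replicates were 4 of the 5, all but Pomc, where 1.77% of all genes were lower in this way. Fewer cells of a type and less RNA per cell cannot be told apart in such samples.

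The probe that read Gh is shown first, and then, as context that was not measured here, the regions upstream of the other hormone genes. Gh was read by a 60 base probe whose ends lie 244 bases apart on chromosome 11, from 106162492 to 106162735 (mm9), so it spans an exon junction. The probe is shown from its 5′ end as deposited.

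Gh probe: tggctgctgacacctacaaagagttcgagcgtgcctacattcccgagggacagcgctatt

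Upstream sequence is shown for Cga, Lhb, Tshb and Pomc, which were lower together, and for Prl, which was not. Each is the 250 bases before the start site in the gene's own direction, from RefSeq on GRCm38.p6, a later build than the mm9 of the probes. The windows are chr4:34893529-34893778 on the plus strand for Cga, chr7:45420696-45420945 plus for Lhb, chr3:102782715-102782964 minus for Tshb, chr12:3954695-3954944 plus for Pomc and chr13:27057320-27057569 plus for Prl. Capitals mark matches, on either strand, to the TATA box letters TATAAA, the POU1F1-like letters TATNCAT, the nuclear receptor letters AAGGTCA or the PITX-like letters TAATCC.

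Cga: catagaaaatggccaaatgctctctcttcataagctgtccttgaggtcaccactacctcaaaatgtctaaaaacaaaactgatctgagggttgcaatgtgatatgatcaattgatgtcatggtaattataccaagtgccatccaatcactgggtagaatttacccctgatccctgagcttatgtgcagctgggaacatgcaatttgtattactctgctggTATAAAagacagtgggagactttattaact
Lhb: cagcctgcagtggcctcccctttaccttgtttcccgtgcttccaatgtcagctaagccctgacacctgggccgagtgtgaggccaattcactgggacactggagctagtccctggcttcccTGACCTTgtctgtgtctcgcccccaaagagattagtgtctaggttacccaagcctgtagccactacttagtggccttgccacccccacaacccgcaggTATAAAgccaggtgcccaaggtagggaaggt
Tshb: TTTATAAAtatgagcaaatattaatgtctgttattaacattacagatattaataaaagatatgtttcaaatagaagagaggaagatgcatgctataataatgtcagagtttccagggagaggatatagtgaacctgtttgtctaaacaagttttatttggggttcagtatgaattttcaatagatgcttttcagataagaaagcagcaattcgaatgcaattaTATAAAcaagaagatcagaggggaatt
Pomc: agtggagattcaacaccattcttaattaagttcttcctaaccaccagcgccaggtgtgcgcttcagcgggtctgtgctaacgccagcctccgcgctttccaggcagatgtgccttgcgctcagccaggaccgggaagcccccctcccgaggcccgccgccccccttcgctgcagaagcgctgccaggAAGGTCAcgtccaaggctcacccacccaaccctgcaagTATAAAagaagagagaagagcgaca
Prl: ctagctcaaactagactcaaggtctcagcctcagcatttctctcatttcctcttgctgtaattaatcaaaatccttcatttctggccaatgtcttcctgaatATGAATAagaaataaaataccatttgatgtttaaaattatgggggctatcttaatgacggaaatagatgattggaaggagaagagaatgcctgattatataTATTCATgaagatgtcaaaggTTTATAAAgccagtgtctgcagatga

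All 5 windows hold TATAAA, which 12.4% of 32851 mouse promoter windows of this length hold. In each it starts between 24 and 31 bases before the start site. Matches to TATAAA and its reverse overlap in Prl and, far upstream, in Tshb. AAGGTCA or its reverse stands in Lhb and Pomc (4.08% of all windows), TATNCAT or its reverse in Prl alone of the 5 (7.92%), and TAATCC in none (6.25%). These matches are descriptions of letters and not of bound sites.

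Gh had a level of 7.86 on the 10 day control and 2.21 on the GHCre array, a 50.4-fold difference (-5.65). After 3 days its levels were 5.69 and 3.65 in the controls, against 5.46 and 2.20 in GHCre mice. The 10 day control was thus the highest of the 6 arrays, and the 10 day GHCre level lay just above the lowest, within the range of 3 days. The replicates of 3 days differed by -2.04 and -3.25. Ghrhr, which binds growth hormone releasing hormone, was at 0.01 on the control and not well above background on the GHCre array, at least 19.4-fold lower by the lowest signal above background there. It was also below background on 3 of the 4 arrays of 3 days.

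Cga, the alpha subunit shared by the glycoprotein hormones, was at 3.88 on the control and -3.35 on the GHCre array, a 150-fold difference (-7.23). Its levels after 3 days were 1.34 and -3.47 in the controls, against 1.16 and -1.0 in GHCre mice, so replicate controls alone differed by -4.81. A second probe assigned to Cga, near background, was at -3.81 and -3.48, and with both probes averaged the difference was -3.44. The beta subunit of luteinizing hormone, Lhb, was at 2.72 and -0.98 (-3.70, 13-fold), with 0.86 and -1.20 in the controls, against 2.08 and -0.90 in GHCre mice after 3 days. The thyrotropin subunit Tshb was at 2.30 and -0.98 (-3.28, 9.74-fold). Among the lower hormones, Tshb had the least spread over the arrays of 3 days, with 0.58 and -0.44 in the controls, against -0.84 and -0.07 in GHCre mice. Fshb, the follitropin subunit, was below background on all 6 arrays. Gnrhr, the gonadotropin releasing hormone receptor, was at least 2.98-fold lower, with 1 of the 3 day controls above background too.

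Pomc, the corticotropin precursor, was at 5.79 and 1.93 (-3.86, 14.5-fold). After 3 days it was at 5.65 and 1.12 in the controls, against 4.09 and 0.90 in GHCre mice, and the replicate difference of -4.52 in controls was the larger. Prl, the prolactin transcript, was at 10.49 and 10.82, and between 10.35 and 11.08 after 3 days. Its difference of 0.32 was smaller than the range of 3 days.

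For all 5 of the lower hormones the 10 day control lay above every array of 3 days. The 10 day GHCre array lay within the range of 3 days for Gh, Cga, Pomc and Lhb, and for Tshb its -0.98 was just under the lowest value, -0.84. Levels also followed the slide. For Gh, Pomc, Cga and Lhb, all 3 arrays of slide 3, the 10 day GHCre array among them, were below the 3 arrays of the other slides. Of all genes, 5.19% showed that order, and of the 472 lower genes 87 (18.4%) did. Tshb and Prl did not. The part of the slide in these differences was not tested.

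**Figure D3:**
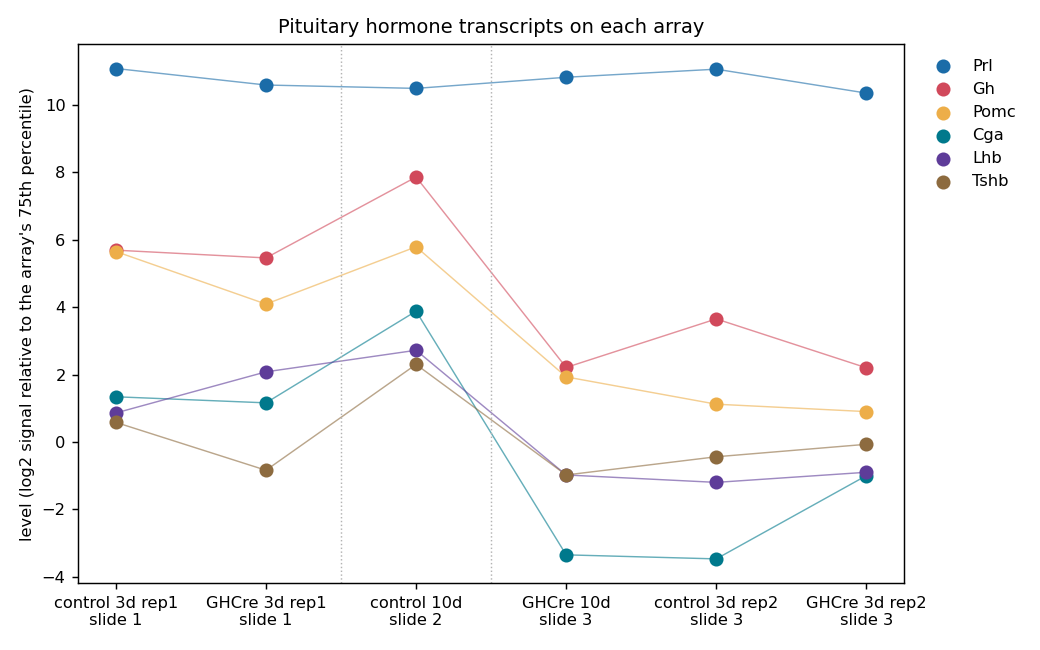
Level of 6 hormone transcripts on each of the 6 arrays, grouped by slide, in log2 units relative to the array's 75th percentile, with lines that only guide the eye. The 10 day control is highest for Gh, Pomc, Cga, Lhb and Tshb, and Prl stays between 10.35 and 11.08 over all arrays.

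Of 24 secretory granule and prohormone processing genes above background, 13 were higher and 11 lower, 0 passed 4-fold, where 4.6% of all genes did, and the median was 0.10 (0.05 to 0.15 over the settings). Chgb, a granule core protein, was at 7.39 and 7.62, Cpe, a prohormone processing enzyme, at 6.15 and 6.27, and Snap25, a membrane fusion protein, at 6.48 and 6.33. The largest differences in this group were 1.72 for Syt7 and -1.31 for Vamp2, both vesicle proteins. Syt7 was at -2.67 and -0.94, and Vamp2 at 1.51 and 0.20. The replicate medians of the group, 0.41 and 1.11, were larger.

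Among 21 pituitary lineage transcription factors 13 were higher and 0 passed 4-fold, where 4.6% of all genes did. Their median was 0.14, from 0.03 to 0.22 over the settings. Pou1f1, the factor of growth hormone, prolactin and thyrotropin cells, stood highest among them in its difference, at 2.27 and 4.01 (1.75). It was at 3.07 and 4.75 in the controls, against 2.03 and 3.66 in GHCre mice after 3 days, so all 3 arrays of slide 3 were above the others, as for 6 of the 21 and for 7.71% of all genes. Neurod4 was at -1.73 and -0.63, above all 4 arrays of 3 days on both. The gonadotrope factor Nr5a1 was at 0.15 and 0.55, and Foxl2 at 7.56 and 7.99. Neither was lower with Lhb and Cga.

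The 17 measured receptors for hypothalamic and pituitary signals had a median of 0.02, which ran from -0.02 to 0.06 over the settings tried. Of these receptors 0 passed 4-fold, against 4.6% of all genes. Drd2, the dopamine receptor of lactotropes, was at 2.35 and 3.83, within its range of 0.10 to 3.31 after 3 days on the control only. Adcyap1r1, a PACAP receptor, was at -0.52 and -1.98, the growth hormone receptor Ghr at 0.92 and -0.23, and the thyroid hormone receptor Thrb at -1.92 and -0.77.

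In the Hedgehog pathway 10 of 14 measured genes were lower, with a median of -0.62 that ran from -0.78 to -0.40 over the settings. In the same genes the replicate medians were 0.08 and -0.03. The list had been seen to be low in an earlier treatment of these arrays, so its direction here is no independent evidence. Gli1, a transcription factor and target of the pathway, was at 0.24 on the control and -2.63 on the GHCre array (-2.87, 7.3-fold), below the lowest of the 4 arrays of 3 days. Those were at -1.72 and -0.47 in the controls, against 1.55 and 0.68 in GHCre mice. Hhip, a target that binds the ligand, was at -0.92 and -3.70 (-2.78), with the arrays of 3 days between -2.0 and -1.13. The 10 day arrays thus lay on either side of that range. Gli1 and Hhip passed 4-fold and the replicates, 2 of 14 genes where 1.77% of all genes were lower in this way.

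Among the receptors and coreceptors, Cdon was at 0.55 and -1.41 (-1.96) and Boc at 1.97 and 1.09, and on the GHCre array both were below every array of 3 days. The ligand receptor Ptch1, itself a target of the pathway, went the other way, at -0.60 and 0.21. Smo, the membrane transducer, was at 6.59 and 6.33, within its range of 6.12 to 6.82 after 3 days. Kif7, a ciliary regulator, was at -1.91 and -3.54, within a wide range of -4.82 to -0.57. Gli3 was at -2.66 and -1.75. The 4 largest decreases were in genes with levels below 1 on both arrays, and the target Ptch1 was not lower.

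**Figure D4:**
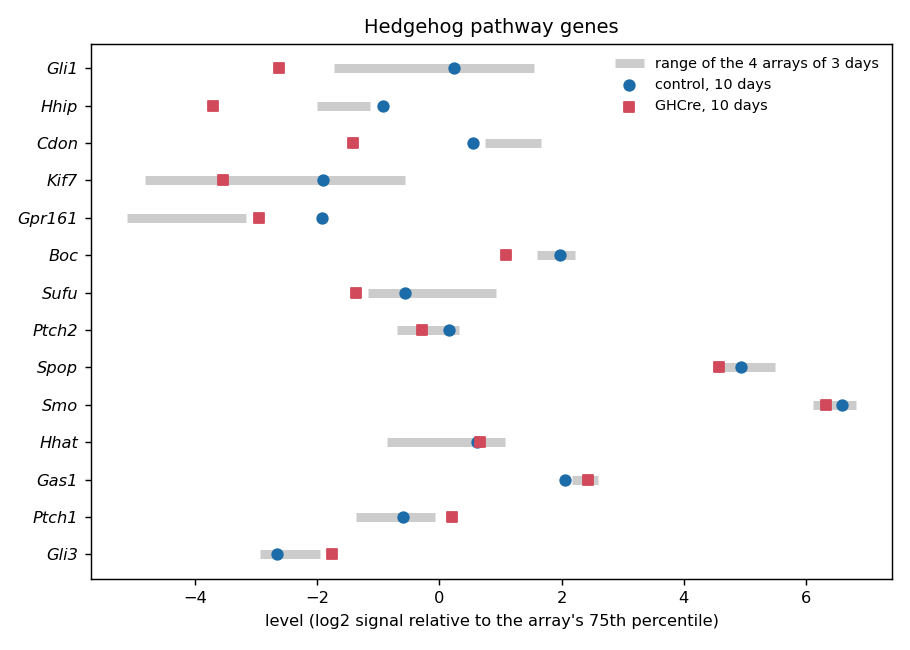
Levels of the 14 measured Hedgehog pathway genes on the control (circles) and GHCre array (squares) after 10 days, with grey bars for the range of the 4 arrays of 3 days, in log2 units. Gli1, Hhip, Cdon, Boc and Sufu lie below their bar on the GHCre array, whereas Ptch1 and Gli3, which were higher, lie above theirs. Gpr161 was lower but lies above its bar on both 10 day arrays.

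Pituitary stem and progenitor markers were measured in 23 genes, of which 16 were lower, with a median of -0.40 and replicate medians of -0.22 and -0.36. The probe of Sox2 was not above background on either 10 day array or after 3 days, so the defining stem cell gene was not measured. Sox9, which marks the same cells, was at 1.56 and 1.82. S100b, a calcium binding protein of folliculostellate and stem cells, was at 1.27 and -0.73 (-2.0). It was the 1 marker of 23 past 4-fold, where 4.6% of all genes were, so the count is near that share. The replicate controls, at 2.00 and -0.01, lay as far apart. Rbpms, an RNA binding protein, was at 0.55 and -1.40, and Mia, a secreted cartilage protein, at 2.18 and 0.24. Ednrb, an endothelin receptor, was at -1.11 and -2.56. Lgals3 was the most raised of these markers in the GHCre array, at -0.41 and 0.90.

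Of the sorting criteria, Ly6a, which encodes a Sca1 protein, was at -3.48 and -2.78, both near background, and Abcg2, a dye efflux pump, at -0.02 and 0.04. Of 23 ABC transporters, 14 were higher (median 0.41, from 0.06 to 0.45 over the settings). Abcb1b, a further efflux pump, was at -2.52 and 0.22 (2.73), higher than all arrays of 3 days, whose top was -0.92. Abcb9, a peptide transporter of lysosomes, was at -2.0 and 0.93, less than its difference between replicate controls. Abcc9, a potassium channel subunit, was at 0.52 and -2.78 (-3.31), with the arrays of 3 days in between, from -1.37 to -0.70.

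Folliculostellate and glia-like genes had 6 of 11 lower and a median of -0.10. Aldoc, a glycolytic enzyme of glia, was at 2.14 and -0.83 (-2.97) and beyond the replicates, with -2.39 and -0.08 in the controls, against 1.76 and 0.13 in GHCre mice after 3 days. Sparcl1, a matrix protein, was at 5.18 and 4.23, and Glul, the glutamine synthetase, at 4.75 and 4.28. Cst3, Apoe and Vim each differed by less than 0.25.

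Of 17 fibroblast and mural cell genes 13 were lower (median -0.50) and 0 passed 4-fold, against 4.6% of all genes. Their replicate medians were -0.40 and -0.47. Des, an intermediate filament of mural cells, was at 1.18 and -0.27, and Acta2, the smooth muscle actin, at 0.36 and -1.27. Of 24 integrins and laminins 14 were lower (median -0.52, from -0.55 to -0.23 over the settings). Lama1, a laminin chain of basement membranes, was at -0.53 and -3.24 (-2.71), below all arrays of 3 days, whose lowest was -2.38. Itga8, an integrin of mesenchymal cells, was at 0.45 and -1.24. Collagens were lower in 16 of 26 with a median of -0.10 (-0.24 to -0.05). Adamts9, a matrix protease, was at 0.29 and -2.32 (-2.61), and Loxl2, a collagen crosslinking enzyme, at -0.77 and 1.58 (2.35).

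In the Hippo pathway 16 of 18 genes were lower, with a median of -0.39, but the replicate controls differed by a median of -0.69 in the same direction. Tead3, a transcription factor partner of YAP, was at -1.27 and -3.77 (-2.50), the control being above the 4 arrays of 3 days and the GHCre array within their range. Yap1 itself was at -1.01 and -0.72. For 6 of the 18 genes all 3 arrays of slide 3 were below the others, as for 5.19% of all genes.

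Other signalling groups were mixed, and their outliers were single genes. In the Wnt pathway 19 of 30 were lower (median -0.17). Rspo3, a secreted amplifier of Wnt signals, was at 0.47 and -3.10 (-3.56), above and below all arrays of 3 days, which lay between -0.94 and -0.15. The receptor Fzd3 was at -2.80 and -0.27 (2.53), and the GHCre replicates of 3 days, at -2.78 and -0.30, lay nearly as far apart. Wnt5b (2.90) and Fzd5 (-2.35) also passed 4-fold, but were not beyond the replicates. Of 28 TGF-beta and BMP genes 18 were lower (median -0.18, from -0.34 to -0.14 over the settings). The ligand Tgfb1 was at -2.64 and 0.09 (2.73), higher on the GHCre array than on any array of 3 days. Among EGF and FGF families 11 of 17 were lower (median -0.38, from -0.42 to -0.09 over the settings). Fgf1, a growth factor, was at 1.52 and -2.62 (-4.15) on its brightest probe. Its other probe, near background, was at -4.21 and -3.11. Notch genes had a median of 0.10 (-0.08 to 0.14), with Heyl, a target in mural cells, at 0.11 and -1.5. Of 16 retinoic acid genes 11 were lower (median -0.26), and Crabp1, a binding protein, was at 0.91 and -0.56.

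**Figure D5:**
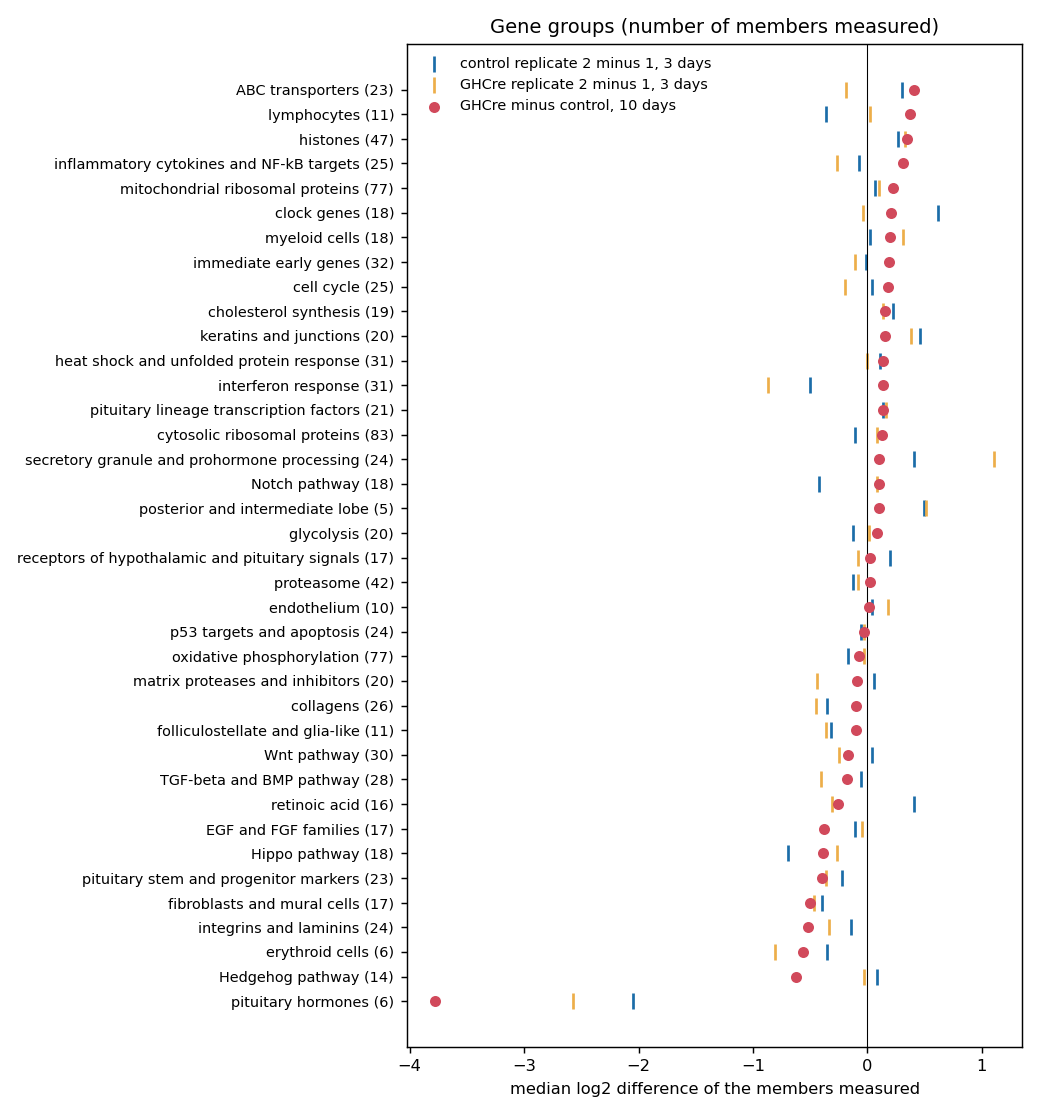
Median difference, GHCre minus control after 10 days, of each gene group (red points, number of members above background on both arrays in brackets), with ticks for the median difference between replicates of 3 days in controls (blue) and GHCre mice (yellow). Hormones at -3.78 stand apart. The Hedgehog pathway, at -0.62, lies outside both of its ticks, but so do many other groups. Among these are the EGF and FGF families at -0.38, integrins and laminins at -0.52 and inflammatory genes at 0.31.

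Immune and inflammatory genes differed by little. Of 31 interferon response genes 17 were higher, with a median of 0.14 that ran from -0.05 to 0.20 over the settings. The antiviral gene Ifit2 was at -0.56 and -2.74 (-2.18). Xaf1, an apoptosis factor that interferon induces, was at -3.08 and -0.60 (2.47). Both were beyond the replicates, in opposite directions. Of 25 inflammatory cytokines and NF-kB targets 18 were higher (median 0.31) and 0 passed 4-fold, against 4.6% of all genes. Tnf was at -2.12 and -0.46, above all arrays of 3 days on both, and Il6 at 2.77 and 3.87, between the controls (1.66 and 1.59) and the GHCre mice (4.22 and 4.36) of 3 days.

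Among markers of other cell types, myeloid genes had 11 of 18 higher (median 0.20, from 0.03 to 0.45 over the settings), led by the chemokine receptor Ccr2 at -2.71 and -0.25 (2.45), and C1qa was not above background on either array. Of 11 lymphocyte genes 6 were higher (median 0.37, from 0.13 to 0.58) and 0 passed 4-fold, against 4.6% of all genes. The largest differences went both ways, with Cd2 (1.55) and Cd3d (1.25) higher and Cd3g (-1.46) and Ccr7 (-1.41) lower. Cd8a was at -1.49 on the GHCre array, at least 5.45-fold higher than on the control, where it was not above background. After 3 days it was at -1.74 and -2.35 in the controls and above background on 1 GHCre array, at -3.42. Endothelial genes were higher in 5 of 10, and Tie1 was below background. Of 6 erythroid genes 4 were lower (median -0.56, from -0.60 to -0.32). The erythroid enzyme Alas2 was at 0.17 and -2.07, Hbb-bt was at least 4.4-fold lower, and Hba-a1 was at 1.73 and 1.41. Slc4a1 went the other way, at -2.33 and -0.73 (1.60), above all arrays of 3 days on the GHCre array, whose top was -2.19. Among posterior and intermediate lobe genes, Pax7 was below background on both arrays and Oxt was at -3.0 and -0.44 (2.56). The part of these cell types in the results above was not tested.

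Growth and stress genes followed no common direction. Of 25 cell cycle genes 14 were higher (median 0.18, from -0.04 to 0.22), while Mki67, a marker of dividing cells, was at -1.35 and -4.10 (-2.76) and the mitotic kinase Aurka at -0.37 and -3.09 (-2.72). For Aurka the arrays of 3 days were at -2.66 and -3.14 in the controls, against -0.16 and 1.34 in GHCre mice. Of 32 immediate early genes 24 were higher (median of the 32, 0.19) and 0 passed 4-fold, against 4.6% of all genes. Among 24 p53 targets and apoptosis genes the median was -0.03. Pmaip1, a death promoting BH3 protein, was at -3.25 and 0.84 (4.09), while Apaf1, a caspase activator, was at -1.45 and -4.10 (-2.65). Heat shock and unfolded protein genes had a median of 0.14 over 31 genes (0.03 to 0.18).

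Large housekeeping families differed by small amounts. Cytosolic ribosomal protein genes were higher in 65 of 83, where 49% of all genes were, with a median of 0.13 and a range of -0.38 to 0.50. Their replicate medians were -0.11 and 0.08. Mitochondrial ribosomal protein genes were higher in 50 of 77 (median 0.22), and Mrpl32 was lower beyond the replicates, at 0.09 and -2.25. Of 47 histone genes 35 were higher (median 0.35, from 0.20 to 0.39), and the replicate medians, 0.27 and 0.33, were as large. For 14 of the 47 all 3 arrays of slide 3 were above the others, a pattern held by 7.71% of all genes. Oxidative phosphorylation genes were lower in 44 of 77, with a median of -0.07.

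The proteasome list held the largest decrease of any named gene. Its 42 genes had a median of 0.02 (-0.01 to 0.06), but Psmd10, an assembly chaperone of the proteasome known as gankyrin, was at 5.43 on the control and -2.79 on the GHCre array (-8.21, 297-fold). The arrays of 3 days were between -2.43 and 0.51, so the 10 day control stood apart. Its 60 base probe spans an exon junction on chromosome X from 137483840 to 137486736 (mm9) and is shown because this value rests on it.

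Psmd10 probe: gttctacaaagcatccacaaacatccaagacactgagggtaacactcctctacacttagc

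A second Psmd10 probe was at -3.08 on the control and below background on the GHCre array (-3.15), at -1.47 and -3.25 in controls after 3 days and at -3.13 in 1 GHCre array. The second probe did not show the high control level. Mtmr2, a phosphoinositide phosphatase, likewise was at 5.92 on the control against 1.42 on the GHCre array and 1.65 to 2.93 after 3 days (-4.50). Its other probe went the other way, from below background on the control (-3.85) to -2.0 on the GHCre array (1.85). Gm5458 was at 7.63 and 0.07 on 1 probe, and its 3 other probes differed by 0.12 to 1.37. It was left out of the named genes for that reason.

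Golga5, a golgin of the Golgi apparatus, had the largest increase, from -0.43 on the control to 9.46 on the GHCre array (9.89, 950-fold). The arrays of 3 days lay between -1.51 and 0.45, so the 10 day GHCre array alone stood apart, and 1 probe carries this value. Tbc1d20, a GTPase activating protein of Rab1, was at -0.33 and 4.35 (4.68), against -2.19 to 0.78 after 3 days, also on 1 probe. Gad2, which makes the transmitter GABA, was at -3.71 and 1.5 (5.21). Those of 3 days were between -1.55 and 1.06, so the control lay below and the GHCre array above them. Enox2, a cell surface oxidase, was at -3.38 and 2.20, and Mageh1, of the MAGE family, at -3.22 and 1.51. Mrrf, the mitochondrial ribosome recycling factor, was at -3.43 and 1.29, and its second probe, below background on the control, was at 0.13 on the GHCre array. The others of the 12 largest increases were Nol10, Fgd3, Prr5l, Stk32a, Fbxo16 and Dusp22, from 4.42 down to 4.12. With all probes of a gene averaged, Fgd3, Prr5l, Fbxo16 and Dusp22 were under 4-fold. The second probe of Fbxo16 went the other way, from -2.30 on the control to below background on the GHCre array (-2.71).

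Among the 12 largest decreases were also Rnf170, a ubiquitin ligase of calcium channels, at 0.91 and -4.04 (-4.95), and Tm6sf2, a lipid transport gene, at 0.88 and -3.61. The neurofilament gene Nefm was at 0.90 and -3.49 (-4.39), with -3.89 to -0.51 after 3 days. Fibin was at 2.03 and -2.09 (-4.12), with the arrays of 3 days between 0.97 and 2.31, so that here the GHCre array stood apart. The leukocyte receptor Lair1 was at 1.05 and -2.99, and Hspa1l, of the heat shock protein family, at 0.97 and -3.14. The largest decreases end with 0610010F05Rik at 1.21 and -3.20. Its other probe went the other way, from below background on the control to -3.28 on the GHCre array (1.26). With probes averaged, Mtmr2, Fgf1, Lair1 and 0610010F05Rik were under 4-fold.

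Either lone array could be the one that stood apart. Of the 358 higher genes, the GHCre array alone lay outside the range of 3 days in 170 (47.5%) and the control alone in 54 (15.1%). Of the 472 lower genes, the control alone did in 144 (30.5%) and the GHCre array alone in 119 (25.2%). Over all 18030 genes these shares were 17.3% for the GHCre array and 16.4% for the control.

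Probes of 1 gene agreed only in part. Of 3904 genes with a further probe above background on both arrays, 58.3% had the same sign on it. Of the higher genes with such a probe, 39 of 71 (54.9%) had the same sign, and of the lower genes 53 of 84 (63.1%). A further probe passed 4-fold in the same direction for 9 higher and 10 lower genes. Among them Padi2, a protein citrullinating enzyme, differed by 3.86 and 4.11, and Trib2, a pseudokinase, by 3.68 and 3.53. P2rx7, an ATP-gated channel, differed by 2.35 and 3.63. Its levels were -0.76 and 1.59, with -5.68 and -6.33 in the controls, against 0.16 and 0.15 in GHCre mice after 3 days. On the lower side were Rnf170, at -4.95 and -2.96, and Casd1, a sialic acid acetylating enzyme, at -2.69 and -2.63. Lgals4, a galectin of epithelia, differed by -2.23 and -2.95, and Lrrc75a by -2.33 and -2.16. These genes were chosen after their values were seen.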

How the data were processed

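Per the file headers, the 1 colour scans were read with Agilent Feature Extraction 10.7.3.1. The intensity used is the deposited processed signal, background subtracted, spatially detrended and not scaled between arrays. In the series table the deposited values are log2 and their columns share their quantiles, and how the authors made it is not given in the sources used here. It was an alternative. The gene groups, the members and the rules were chosen with earlier results of these data known.

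Spots of a probe (43020 spots, 39429 probes) were averaged as log2 values without flagged spots, and each array's 75th percentile was subtracted. Probes were named by RefSeq accession (27234), symbol (3576) or synonym (565), and 8054 kept the file's identifier. A gene is its probe of highest mean level over the 6 arrays. Genes well above background on both 10 day arrays were described, at a 4-fold threshold. Named genes are the 12 of largest difference in each direction that passed 4-fold and both replicate differences. Their brighter array was at level 0 or more, and any further probes above background on both arrays agreed in sign. Further probes below background on either array were not held to this. To these were added the hormones, Ghrhr, Sox2, Ly6a, Abcg2, up to 4 members of largest difference in each list and, as bounds, cell type markers above background on 1 array. The rule left out 31 of 267 candidates for disagreeing probes. Some results are not reported here. Other genes in a list were given as background to its role. With 1 array a group no test was run. Alternatives were quantile normalization, normexp with offset 50 (limma 3.58.1 in R 4.3.3), other centring, filters, folds and probe averaging.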

Additional observations from a re-analysis of the deposited data

Results flagged for a closer look

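Gene groups were screened at a minimum median size of 0.25, and smaller medians were not considered. In 2 of the groups screened, the 10 day difference between genotypes had the opposite sign to every difference after 3 days. The median of fibroblast and mural cell genes was -0.50 after 10 days, while the 4 pairings of a GHCre with a control array of 3 days gave medians from 0.29 to 1.22. Replicates of 3 days differed in these genes by medians of -0.40 in controls and -0.47 in GHCre mice, nearly as much. For integrins and laminins the median was -0.52 after 10 days (-0.55 to -0.23 over the settings), against 0.45 to 0.82 after 3 days. The difference between the times was not tested, since each 10 day group has 1 array. The 4 pairings share arrays and are not independent. The 10 day arrays were on different slides, whereas each GHCre array of 3 days shared its slide with a control.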

How the results depend on the processing

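No paired analysis was possible because the 10 day groups share a single replicate number, with 1 array each. Normexp background correction cut the number of genes past 4-fold most, to 95 higher, 93 lower and 158 beyond the replicates, and with quantile normalization to 108, 102 and 183. The share past 4-fold among replicates shrank with it, to 3.14% and 1.73%. Without a filter on dim genes the counts were 1102, 1378 and 1755. With genes above background on all 6 arrays they were 223 and 311. At 2-fold they were 1730, 2031 and 1928, and at 8-fold 78, 113 and 145. The Hedgehog median was -0.45 with normexp, -0.42 with normexp and quantile normalization, -0.51 without a filter, -0.40 above background on all 6 arrays and -0.78 with the mean of all probes, and kept its sign in all of these. The median of integrins and laminins was -0.29 with normexp and -0.23 with normexp and quantile normalization. Quantile normalization alone gave 465 higher and 536 lower, and values from the deposited series table gave 449 and 523. With the replicate controls alone as yardstick 639 genes were beyond the replicates, and with the replicate GHCre arrays alone 709. The 4-fold genes were lower in the GHCre array in 48.6% to 59.4% of cases. No gene called in the reported setting was called in the opposite direction in another. Over 8 settings Gh ran from -5.69 to -5.40, Lhb from -3.80 to -3.17, Tshb from -3.41 to -2.76, Pomc from -3.89 to -3.71 and Prl from 0 to 0.36. The low end of Prl came from quantile normalization and the series table, whose columns share their quantiles. Such values are equal for probes of equal rank, so they do not show that Prl is unchanged. Averaging probes moved Cga to -3.44, Mtmr2 to -1.33, Fgf1 to -1.52, Lair1 to -0.88, 0610010F05Rik to -1.57, Prr5l to 1.42, Fbxo16 to 0.75, Dusp22 to 1.16, Fgd3 to 1.98, Stk32a to 2.26, Psmd10 to -5.68 and Rnf170 to -3.36. The cause of these changes was not tested. Dim genes, with signal near background, limit most counts.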

Other observations

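Further gene groups had medians near 0 after 10 days. Of 18 clock genes 11 were higher (median 0.21). Per2, a repressor of the clock, was at -1.42 on the control and 1.45 on the GHCre array (2.87), within the spread of the replicate controls, which were at -3.66 and 1.54. Of 19 cholesterol synthesis genes 11 were higher (median 0.15), with the sterol reductase Tm7sf2 at -1.70 and 0.12. Glycolysis genes were higher in 12 of 20 (median 0.08), and Pfkp, a phosphofructokinase, was at -0.73 and 0.84, outside the arrays of 3 days on both sides (-0.27 to 0.13). Of 20 keratin and junction genes 12 were higher (median 0.15), with the junction protein Cgn at -1.57 and -3.24. Of 20 matrix proteases and inhibitors 13 were lower (median -0.09), and Mmp11, a stromelysin, was at -3.35 and -0.79, less than its difference between GHCre replicates. Among stress genes, Chac1, which degrades glutathione, was at -0.42 and 1.89 (2.32), within the range of -1.24 to 2.12 after 3 days.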
